A study of Mus musculus with 15 samples.

Results

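The mRNA of 8 serotonin receptor genes was followed in the striatum of mice from a study of Huntington's disease: Htr1a, Htr1b, Htr1d, Htr2a, Htr2c, Htr4, Htr6 and Htr7. They were chosen by name, as the rows of the deposited count table whose Ensembl mouse identifier, with its version dropped, belongs to 1 of these 8 symbols. All 8 were found among the 54232 identifiers of the table, and all 8 were among the 18278 genes that passed the filter on low counts. Each library holds striatal RNA of 1 mouse at an age of 6 months. By genotype, 7 libraries are WT, 4 are KI-96 and 4 are E1. By its title, the study is about RAN translation, the reading of an expanded repeat into protein with no start codon. The title concerns toxicity in knock-in mice that model Huntington's disease, and whether there was any was not examined here. E1 and KI-96 are given by the labels as genotype names alone. What allele each name stands for, its copy number, the strain and the animals' sex were not given in the sources used here, and no treatment is named for any group.

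Serotonin is released in the striatum by axons of the raphe nuclei of the brainstem. Its receptors fall into classes by the G protein they engage: Htr1a, Htr1b and Htr1d couple to Gi/Go proteins, which restrain adenylyl cyclase, Htr2a and Htr2c couple to Gq/11 proteins, which activate phospholipase C, and Htr4, Htr6 and Htr7 couple to Gs proteins, which raise cyclic AMP. Striatal projection neurons are known to carry several of them, with Htr1b placed on their axon terminals, and the receptors tune dopamine release, movement and mood. RNA of a dissected striatum reports the receptor mRNA of cells whose bodies lie in the tissue, and receptors on axons that arrive from elsewhere are made from mRNA outside it.

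Total counts per library ran from 14678565 to 26388542. WT replicates 5 to 7 held 23457270 to 26388542, against 17281603 to 18945441 in WT replicates 1 to 4. The 12 markers of striatal projection neurons, Drd1, Drd2 and Ppp1r1b among them, were present in all 15 libraries at a summed level of 5843 to 10439 CPM (counts scaled to a common library size, with the trimmed mean of M-values). Htt, the gene that Huntington's disease knock-in mice alter, was at 169 to 197 CPM in WT, 135 to 148 in E1 and 144 to 242 in KI-96. The 10 markers of cortical excitatory neurons were high in WT replicate 3, with a sum of 1158 CPM, and in E1 replicates 2 and 3, with 1294 and 820 CPM, against 33.7 to 164 in the other 12 libraries, and 0 of the 10 was at 0 in any library. The 4 Y-linked genes summed to 158 to 205 CPM in WT replicates 2 to 7 and to at most 0.13 CPM in the remaining WT library, replicate 1, and in all 8 E1 and KI-96 libraries. Genotype and the presence of Y-linked transcripts can therefore hardly be told apart in these data. In RNA of whole tissue, fewer cells of a type and less RNA per cell cannot be told apart either.

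Between genes, levels were compared as RPKM (CPM per kilobase of the union of a gene's exons). Htr1b stood highest, at 12.9 ± 4.04 RPKM in WT (SD, n = 7), with 15.8 ± 4.86 RPKM in E1 (SD, n = 4) and 12.1 ± 1.71 RPKM in KI-96 (SD, n = 4). It was above Htr2c, the next in order, in 15 of 15 libraries. Htr2c, Htr6, Htr2a and Htr1d formed a middle group, with WT means of 6.12, 4.97, 4.87 and 4.50 RPKM. The WT ranges of neighbours in this group overlapped, and differences between genes were not tested. Htr2c was above Htr6 in 13 of 15 libraries, Htr6 above Htr2a in 10, and Htr2a above Htr1d in 5. In KI-96 the ranges of Htr2c (6.23 to 11.4 RPKM) and Htr6 (3.88 to 5.00 RPKM) did not overlap. Htr1d was above Htr7 in 15 of 15 libraries, and their WT ranges did not overlap. Htr7, Htr4 and Htr1a were lowest, with WT means of 1.72, 1.60 and 1.23 RPKM. Their order was not fixed: Htr7 was above Htr4 in 9 of 15 libraries and Htr4 above Htr1a in 12. The place of Htr2c depended on the length used. Its exons span 9328 bases in union and 4883 in its longest transcript, and with the latter it had 11.7 RPKM in WT, 13.0 in E1 and 16.3 in KI-96, above Htr1b in 6 of 15 libraries.

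**Figure D1:**
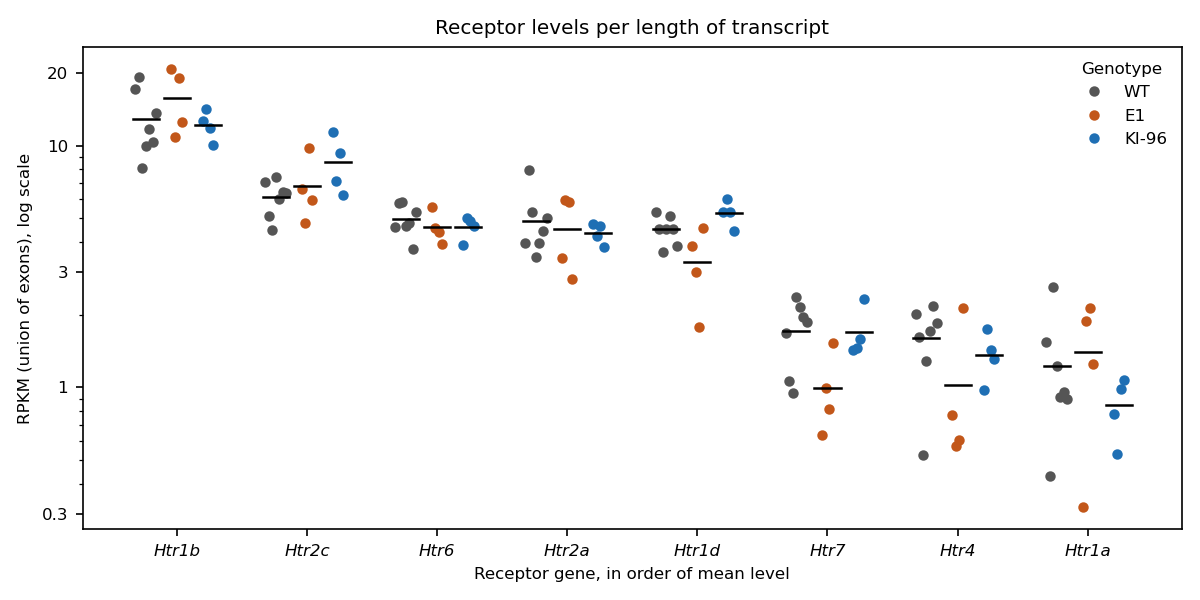
RPKM on a logarithmic axis for the 8 receptor genes, ordered from left to right by mean level, with 1 point per library coloured by genotype (WT n = 7, E1 n = 4, KI-96 n = 4) and a bar at each group mean. By the length used here, the union of exons, Htr1b is the highest gene in all 15 libraries. By the longest transcript Htr2c is above it in 6 of 15. Htr7, Htr4 and Htr1a have the lowest WT means, at 1.72, 1.60 and 1.23 RPKM. The lowest Htr1d library, E1 replicate 3 at 1.78 RPKM, lies among the points of these 3 genes.

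Upstream sequence is shown for Htr1d, Htr2c and Htr7, the 3 receptors with an unadjusted p under 0.05 in any comparison. A link between these letters and the fold changes was not tested. The letters come from the RefSeq promoter table of build GRCm38.p6, in which 7 of the 8 receptors were matched. They run 5′ to 3′ on the gene's strand and end before the first annotated exon base. Capitals mark matches, on either strand, to any of 4 short motifs. They are the TATA box, spelled TATAAA, the GC box, spelled GGGCGG, the CCAAT box, which reads ATTGG from the other strand, and the core of a cyclic AMP response element, spelled TGACG.
Htr1d, chr4:136423274-136423523, plus strand: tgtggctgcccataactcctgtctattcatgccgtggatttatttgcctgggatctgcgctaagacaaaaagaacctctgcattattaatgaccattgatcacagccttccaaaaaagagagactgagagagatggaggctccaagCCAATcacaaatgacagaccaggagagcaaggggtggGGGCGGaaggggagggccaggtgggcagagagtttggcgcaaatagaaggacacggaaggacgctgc
Htr2c, chrX:146962263-146962512, plus strand: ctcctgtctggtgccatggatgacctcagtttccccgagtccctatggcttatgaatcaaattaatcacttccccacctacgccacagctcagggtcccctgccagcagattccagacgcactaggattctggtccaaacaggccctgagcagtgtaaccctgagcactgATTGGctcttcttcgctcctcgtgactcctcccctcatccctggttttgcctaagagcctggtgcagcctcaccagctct
Htr7, chr19:36057508-36057610, minus strand: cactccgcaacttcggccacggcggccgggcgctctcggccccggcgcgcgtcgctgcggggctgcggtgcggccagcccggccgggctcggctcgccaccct
The stretch of Htr7 is cut to 103 bases because the rest of its 250-base window lies in the annotated first exon. In the whole window of 250 bases, Htr7 held 41 CpG dinucleotides and 82% G and C, and 98.9% of the 32851 promoter windows of the table held fewer CpG. Htr1d held 6 CpG and Htr2c held 5. Htr6 held 23, the second highest of the 7. Htr1d had 1 match to the GC box and 1 to the CCAAT box, and Htr2c had 1 to the CCAAT box. Htr7 had 1 match to TGACG, which lies outside the stretch shown. None of the 7 windows had TATAAA, which 12.4% of all windows hold. GGGCGG is in 32.7% of all windows, CCAAT in 33.8% and TGACG in 17.8%, so these matches are common and describe letters only.

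To ask whether receptor mRNA differed with genotype, the 3 groups were compared in 1 edgeR quasi-likelihood model over all genes, with p-values adjusted over all 18278 genes by the Benjamini-Hochberg method. None of the 8 receptors passed the threshold of 0.05 in any of the 3 comparisons. In E1 against WT 3 receptors had positive and 5 negative log2 fold changes, with a median of -0.11 against -0.00 over all genes. In KI-96 against WT 2 were positive and 6 negative, with a median of -0.10 against -0.01 over all genes. In KI-96 against E1 4 were positive and 4 negative, with a median of 0.16 against -0.00. The first 2 of these comparisons share the WT libraries, and the first and the third share the E1 libraries. The smallest adjusted p was 0.484 for Htr7 in E1 against WT, 0.397 for Htr2c in KI-96 against WT and 0.225 for Htr1d in KI-96 against E1.

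By edgeR calls were rare over all genes too. In E1 against WT 0.00547% of the genes tested passed, which is 1 gene, Dusp5, a phosphatase of ERK kinases named here because it was the only call (log2 fold change 0.80, SE 0.11, adjusted p = 0.0339). In KI-96 against WT and in KI-96 against E1 0% of genes passed. DESeq2 was given all 36747 genes with any count and used its own default filter. It called 58 genes in E1 against WT (0.158%), 69 in KI-96 against WT (0.188%) and 201 in KI-96 against E1 (0.547%). These shares are of the 36747 genes, some of which it left without an adjusted p, so they are not on the same base as those of edgeR. Without E1 replicate 4 edgeR called 257, 0 and 190 genes in the same order. DESeq2, limma-voom and edgeR without that library each called 0 of the 8 receptors in each comparison. At an unadjusted p under 0.05, 2 of 8 receptors (Htr7 and Htr1d) were found in E1 against WT, where 8.75% of all genes were. In KI-96 against WT it was 1 of 8 (Htr2c), against 10.5% of all genes, and in KI-96 against E1 it was 2 of 8 (Htr1d and Htr7), against 14.3% of all genes. Of 8 genes, shares of this size come to about 1 gene. Libraries of the groups overlapped in CPM for all 8 receptors in each comparison, whereas they did not overlap for 1.69% of all genes in E1 against WT, 1.29% in KI-96 against WT and 4.79% in KI-96 against E1.

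**Figure D2:**
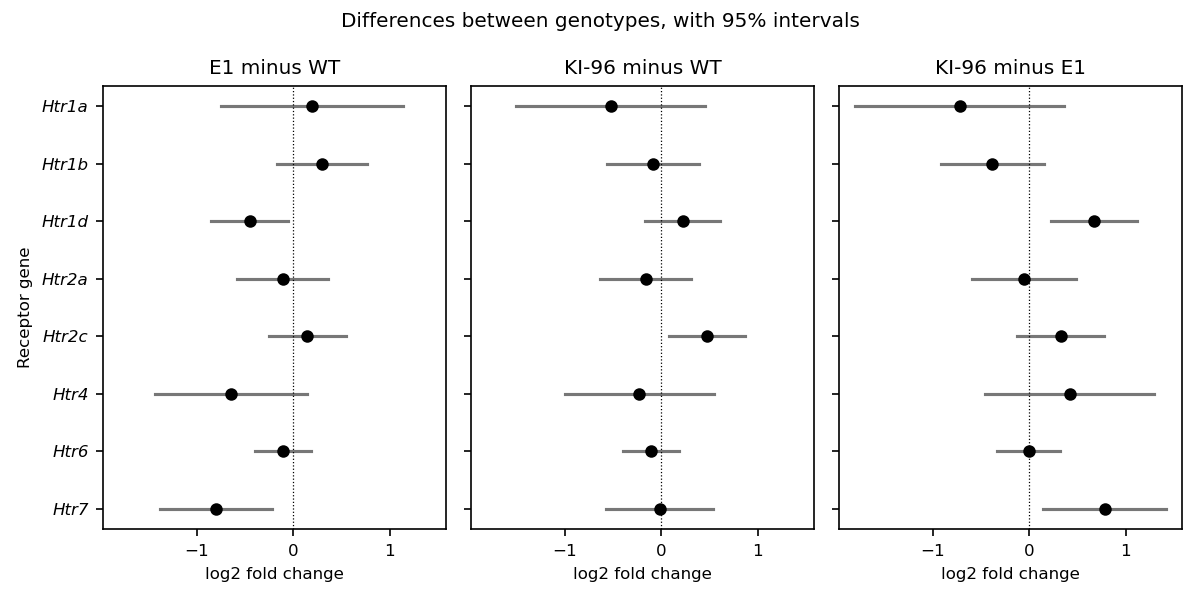
Log2 fold changes of the 8 receptors (points) with their 95% intervals (lines) from the edgeR model, for E1 minus WT, KI-96 minus WT and KI-96 minus E1, with a dotted line at 0. Intervals of Htr1a and Htr4 are the widest and those of Htr6 the narrowest, and all point estimates lie between -0.80 and 0.78.

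The precision differed among the receptors. The 95% interval of the log2 fold change lay between -1 and 1 for 5 of 8 receptors in E1 against WT, for 7 of 8 in KI-96 against WT and for 4 of 8 in KI-96 against E1. The intervals that reached past these bounds against WT were those of Htr1a, Htr4 and Htr7 in E1 and of Htr1a in KI-96. Htr6 was bounded best, with intervals of -0.39 to 0.19 for E1 and -0.40 to 0.18 for KI-96 against WT. Htr1a was bounded least, with intervals of -0.74 to 1.14 and -1.50 to 0.45. A p that misses the threshold within such intervals does not show that the genotypes were alike.

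Among the Gi/Go-coupled receptors, Htr1a is the receptor that also acts as the autoreceptor on raphe neurons. It is a gene of 1 exon on chromosome 13 (105443639 to 105448122, plus strand, build GRCm38). In WT its level ran from 1.94 to 11.7 CPM with a median of 4.28. The E1 libraries had 1.43, 8.48, 9.57 and 5.62 CPM, and the KI-96 libraries had 3.49, 2.37, 4.42 and 4.83 CPM. The range of KI-96 lay within that of WT, and E1 overlapped both. Its log2 fold change was 0.20 (SE 0.44, adjusted p = 0.913) in E1 against WT, -0.52 (SE 0.46, adjusted p = 0.707) in KI-96 against WT and -0.72 (SE 0.51, adjusted p = 0.522) between KI-96 and E1. The 3 highest Htr1a libraries were WT replicate 3, E1 replicate 3 and E1 replicate 2, the same 3 that were high in cortical excitatory markers. Without those 3 libraries the values were -0.35, -0.23 and 0.11, so that 2 of the 3 changed sign. The sign in E1 against WT also turned with those 3 libraries kept. It was -0.06 without WT replicates 5 to 7, -0.02 with the replicate block and -0.22 with the Y-linked covariate. By group, the cortical markers summed to 49.1 to 1158 CPM in WT, 33.7 to 1294 in E1 and 40.0 to 164 in KI-96. With the mean log2 CPM of these markers, not their sum, as a covariate the 3 log2 fold changes of Htr1a were -0.26, -0.27 and -0.01.

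Htr1b is the receptor found on the axon terminals of striatal projection neurons, where it limits transmitter release. It lies on chromosome 9 (81628291 to 81633828, minus strand), and 852 of its exon bases overlap a gene on the other strand, D430036J16Rik, which held 96 to 238 counts per library. How counting treated strand was not given in the sources used here, so the level of Htr1b is uncertain to that extent. In WT its level ran from 38.2 to 90.4 CPM with a median of 55.5. E1 had 98.1, 51.4, 90.4 and 58.9 CPM, and KI-96 had 59.7, 66.7, 55.6 and 47.4 CPM. E1 replicate 1 was the highest of all 15 libraries, and the 4 KI-96 libraries lay within the WT range. The log2 fold change was 0.30 (SE 0.22, adjusted p = 0.696) in E1 and -0.08 (SE 0.22, adjusted p = 0.917) in KI-96 against WT, and between KI-96 and E1 it was -0.38 (SE 0.25, adjusted p = 0.493). Of the summed RPKM of the 8 receptors, Htr1b made up 33.3 ± 5.94% in WT (SD, n = 7), 40.5 ± 7.27% in E1 (n = 4) and 31.2 ± 2.67% in KI-96 (n = 4). These shares rest on the union of exons and were not computed with the longest transcript.

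Htr1d is a close relative of Htr1b that is likewise found on axon terminals. It lies on chromosome 4 (136423524 to 136444398, plus strand). WT libraries held 11.6 to 17.0 CPM, with a median of 14.5. E1 held 12.3, 9.60, 5.69 and 14.6 CPM, and KI-96 held 17.0, 19.2, 17.0 and 14.2 CPM. E1 replicates 2 and 3 lay below all 7 WT libraries and below all KI-96 libraries, while E1 replicate 4 at 14.6 CPM was above KI-96 replicate 4 at 14.2, so that each pair of groups overlapped. The log2 fold change was -0.45 (SE 0.19, unadjusted p = 0.0298, adjusted p = 0.530) in E1 against WT and 0.22 (SE 0.18, adjusted p = 0.689) in KI-96 against WT. Against E1, KI-96 had 0.67 (SE 0.21, 95% interval 0.22 to 1.11, unadjusted p = 0.00543, adjusted p = 0.225), the smallest p of the 24 tests on receptors. Both low E1 libraries are among the 3 that were high in cortical markers. Without those 3, Htr1d had -0.15 in E1 against WT and 0.32 in KI-96 against E1, with edgeR adjusted p-values of 0.968 and 0.502. Without E1 replicate 4 the values were -0.65 and 0.87, with adjusted p-values of 0.112 and 0.0561, and across all 26 alternative settings the sign of Htr1d stayed the same in the 3 comparisons. In E1 against WT 0 of 8 receptors had an unadjusted edgeR p under 0.05 without WT replicates 5 to 7. The same held with the Y-linked genes as a covariate.

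**Figure D3:**
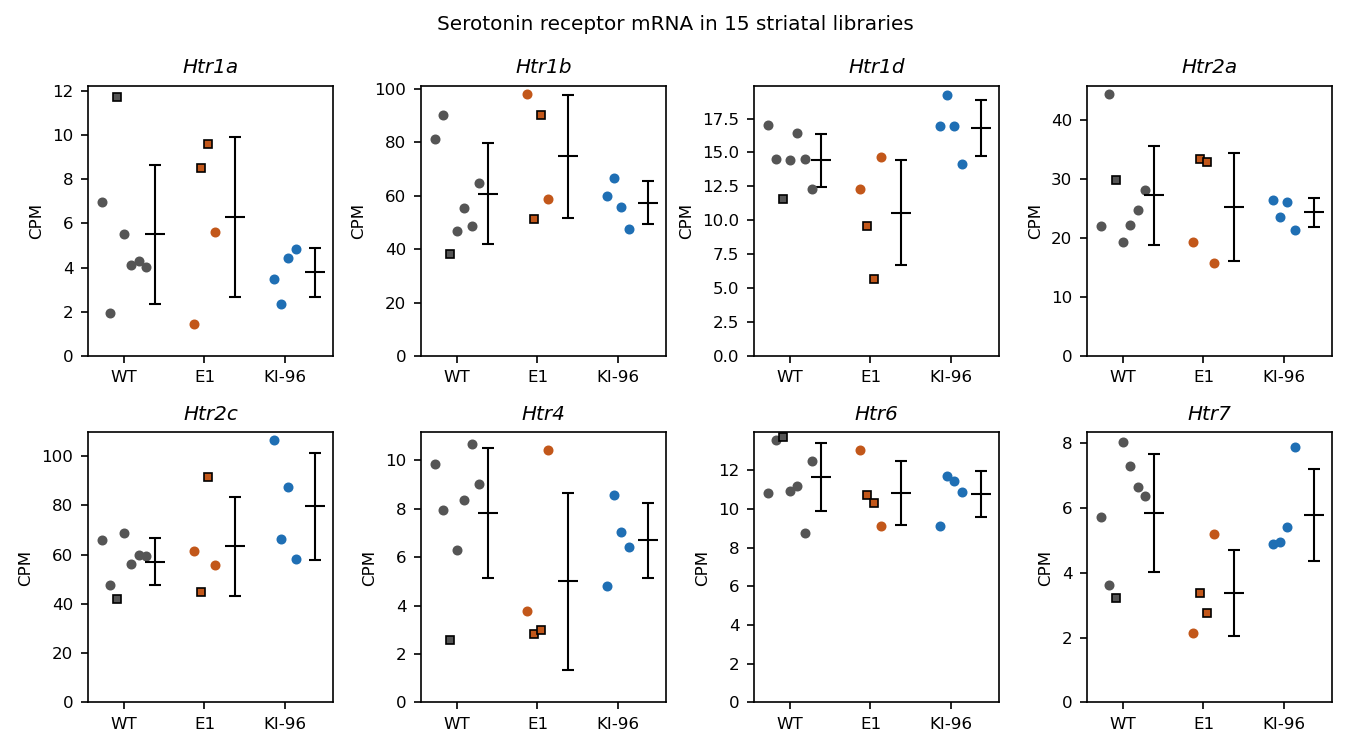
CPM of each receptor in every library, by genotype (WT n = 7, E1 n = 4, KI-96 n = 4), with the mean and SD of the group in black beside the points. Squares with a black edge are the 3 libraries high in cortical excitatory markers, which hold the 3 highest levels of Htr1a and the 3 lowest of Htr4, and the groups overlap in all 8 panels.

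Of the Gq/11-coupled receptors, Htr2a is the target of classical hallucinogens and is best known from cortical pyramidal neurons. It lies on chromosome 14 (74640840 to 74709494, plus strand). WT libraries ran from 19.4 to 44.4 CPM with a median of 24.8. E1 libraries held 19.3, 33.4, 32.9 and 15.7 CPM, and KI-96 libraries held 26.5, 23.6, 26.1 and 21.3 CPM. The KI-96 values all lay within the WT range, and the E1 values fell into a high pair, replicates 2 and 3, and a low pair. The high pair are the E1 libraries high in cortical markers. Its log2 fold change was -0.11 (SE 0.22, adjusted p = 0.900) in E1 and -0.16 (SE 0.22, adjusted p = 0.827) in KI-96 against WT, and -0.05 (SE 0.25, adjusted p = 0.943) between KI-96 and E1. Without the 3 libraries high in cortical markers it was -0.62 in E1 against WT and 0.48 in KI-96 against E1, with edgeR adjusted p-values of 0.968 and 0.516.

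Htr2c, a receptor whose mRNA is edited by adenosine deaminases and which is also dense in the choroid plexus, lies on chromosome X (146962513 to 147197277, plus strand). Its introns host 8 small RNA genes, each of which held at most 14 counts in any library. WT libraries ran from 42.0 to 68.9 CPM with a median of 59.5. E1 libraries held 61.4, 44.8, 91.4 and 55.6 CPM, and KI-96 libraries held 106, 66.4, 87.3 and 58.1 CPM. KI-96 replicates 1 and 3 lay above all WT libraries, as did E1 replicate 3, and KI-96 replicates 2 and 4 lay among the WT libraries. The log2 fold change in KI-96 against WT was 0.48 (SE 0.19, 95% interval 0.08 to 0.87), with an unadjusted p of 0.0215 and an adjusted p of 0.397. E1 differed from WT by 0.15 (SE 0.19, adjusted p = 0.826), and KI-96 from E1 by 0.33 (SE 0.21, adjusted p = 0.488). Leaving out 1 library at a time moved the KI-96 value against WT between 0.30, without KI-96 replicate 1, and 0.60, without KI-96 replicate 4, where the adjusted p was 0.139. Without KI-96 replicate 1, or without KI-96 replicate 3, 0 of 8 receptors had an unadjusted edgeR p under 0.05 in this comparison. The same held without WT replicates 5 to 7, with the replicate block, and with the choroid or the Y-linked covariate.

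Choroid plexus markers were set beside Htr2c. The 12 markers, Ttr among them, summed to 52.4 to 434 CPM in WT, 29.3 to 96.4 in E1 and 40.2 to 104 in KI-96, and Folr1 and Kcne2 were at 0 in at least 1 library. KI-96 replicate 1, with the most Htr2c (106 CPM), had 40.2 CPM of these markers, and WT replicate 2, with the most choroid markers (434 CPM), had 47.5 CPM of Htr2c. Within E1 the order was the same in both: replicates 1 to 4 had 78.0, 29.3, 96.4 and 66.0 CPM of these markers, and replicate 3 was the highest E1 library and replicate 2 the lowest in each. With the mean log2 CPM of the choroid markers as a covariate the log2 fold change of Htr2c in KI-96 against WT was 0.38 (edgeR adjusted p = 0.921). With the mean log2 CPM of the Y-linked genes as a covariate it was 0.26. WT replicate 1, the only WT library with 0 Y-linked counts, had 66.1 CPM of Htr2c. The part of choroid plexus tissue in the level of Htr2c was tested no further than by this covariate.

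Of the Gs-coupled receptors, Htr6 is known for its dense expression in striatal projection neurons, and its fold changes had the smallest SE of the 8. It lies on chromosome 4 (139061108 to 139075570, minus strand). WT libraries ran from 8.73 to 13.7 CPM with a median of 11.2. E1 libraries held 13.1, 10.7, 10.3 and 9.13 CPM, and KI-96 libraries held 9.09, 11.7, 11.5 and 10.9 CPM. All 8 E1 and KI-96 libraries lay within the WT range. The log2 fold change was -0.10 (SE 0.14, adjusted p = 0.834) in E1 against WT, -0.11 (SE 0.14, adjusted p = 0.809) in KI-96 against WT and -0.00 (SE 0.16, adjusted p = 0.997) between KI-96 and E1.

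Htr7, a receptor best known from thalamus, hypothalamus and circadian control, had the lowest unadjusted p in E1 against WT. It lies on chromosome 19 (35958734 to 36057507, minus strand). WT libraries ran from 3.23 to 8.02 CPM with a median of 6.36. E1 libraries held 2.15, 3.37, 2.77 and 5.20 CPM, and KI-96 libraries held 4.87, 4.94, 5.40 and 7.87 CPM. E1 replicates 1 and 3 were below all other libraries, E1 replicate 2 lay between WT replicate 3 (3.23) and WT replicate 2 (3.61), and E1 replicate 4 was among the KI-96 values. Behind these levels stood 42 to 189 counts per library. The log2 fold change was -0.80 (SE 0.28, 95% interval -1.38 to -0.22, unadjusted p = 0.00982, adjusted p = 0.484) in E1 against WT and -0.01 (SE 0.26, adjusted p = 0.988) in KI-96 against WT. In KI-96 against E1 it was 0.78 (SE 0.30, 95% interval 0.14 to 1.42, unadjusted p = 0.0197, adjusted p = 0.278). The E1 value against WT stayed negative in all 26 alternative settings, between -1.09 and -0.60, and it was -0.78 without the 3 libraries high in cortical markers, with an edgeR adjusted p of 0.968. Its unadjusted edgeR p was not under 0.05 in every setting. Without WT replicates 5 to 7, or with the Y-linked covariate, 0 of 8 receptors were under 0.05 in E1 against WT.

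Htr4, which in the striatum is known to sit on projection neurons and to be dense in the ventral part, lies on chromosome 18 (62324204 to 62496577, plus strand). WT libraries ran from 2.59 to 10.7 CPM with a median of 8.37. E1 libraries held 3.79, 2.81, 2.98 and 10.4 CPM, and KI-96 libraries held 4.80, 8.56, 7.04 and 6.41 CPM. E1 replicate 4 stood apart from the other 3 E1 libraries and near the top of the WT range, and WT replicate 3 had the lowest level of all. The log2 fold change was -0.65 (SE 0.37, adjusted p = 0.621) in E1 and -0.23 (SE 0.36, adjusted p = 0.853) in KI-96 against WT, and 0.42 (SE 0.41, adjusted p = 0.651) between KI-96 and E1. Without E1 replicate 4 the E1 value against WT was -1.30 (adjusted p = 0.0602) and that of KI-96 against E1 was 1.07 (adjusted p = 0.159). The 3 libraries lowest in Htr4 were again those high in cortical markers, and without them the E1 value against WT was -0.30 and that of KI-96 against E1 was -0.09.

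Markers of cholinergic interneurons ran low in the same E1 libraries as Htr4 and Htr7. The 4 markers, Chat, Slc5a7, Slc18a3 and Lhx8, summed to 75.3, 67.5 and 66.4 CPM in E1 replicates 1 to 3 and to 103 in E1 replicate 4. Their sums ran from 68.4 to 120 CPM in WT, with WT replicate 3 the lowest, and from 82.1 to 127 in KI-96. All 4 had negative log2 fold changes in E1 against WT, with a median of -0.42, while 49.7% of all genes had positive ones. An unadjusted p under 0.05 was found for 2 of 4, against 8.75% of all genes, and 0 of 4 passed the threshold by edgeR (smallest adjusted p 0.448), DESeq2 or limma-voom. None of these markers was at 0 in any library. Markers of other cell types were also highest in replicate 4 within E1. The 5 astrocyte markers summed to 833, 763, 957 and 999 CPM in E1 replicates 1 to 4, against 789 to 1136 in WT, where replicate 3 was again the lowest. The 4 hippocampus markers summed to 41.9, 36.5, 40.3 and 58.0 CPM in the same E1 libraries, against 46.0 to 61.9 in WT. The 7 markers of thalamus and other subcortical excitatory neurons summed to 68.1 to 116 CPM in E1, 81.2 to 154 in WT and 80.9 to 373 in KI-96. KI-96 replicate 4, the highest in these, was also the KI-96 library with the most Htr7 (7.87 CPM). In WT the library highest in these markers was replicate 7, and the one highest in Htr7 was replicate 4 (8.02 CPM). The part of these cell types in the levels of Htr4 and Htr7 was not tested.

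**Figure D4:**
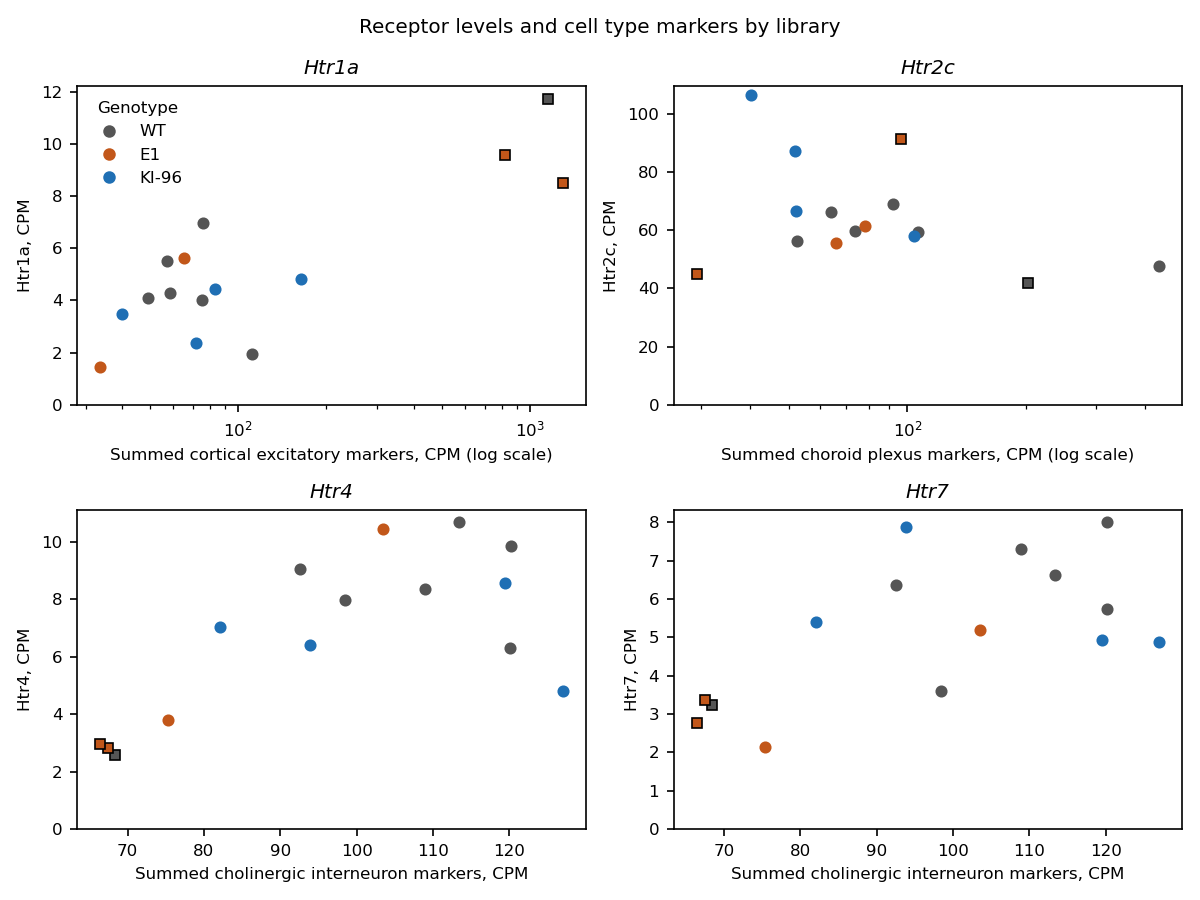
CPM of Htr1a against the summed CPM of cortical excitatory markers and of Htr2c against choroid plexus markers (logarithmic horizontal axes), and of Htr4 and Htr7 against cholinergic interneuron markers (linear axes), with 1 point per library coloured by genotype; the 4 panels were chosen after the values were seen. Squares with a black edge are the 3 libraries high in cortical markers, which stand at the top of Htr1a and at the lower left of Htr4 and Htr7.

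The receptors were also compared with one another across the 15 libraries, as Pearson correlations of log2 CPM over 28 pairs, with permutation p-values adjusted over the pairs. Correlations ran from -0.50 to 0.70, and 0 of 28 pairs passed an adjusted p of 0.05. The highest was between Htr4 and Htr7 (r = 0.70, permutation p = 0.00433, adjusted p = 0.0606; Spearman's rho 0.56, permutation p = 0.0324, adjusted p = 0.453). Without the 2 libraries farthest from the median of Htr4 it was 0.64, within the 7 WT libraries 0.60, and in the 12 libraries low in cortical markers 0.50. Htr1d and Htr4 had r = 0.68 (permutation p = 0.0030, adjusted p = 0.0606) and rho 0.64 (permutation p = 0.0122, adjusted p = 0.342). Their r was 0.49 without E1 replicates 2 and 3, the 2 libraries farthest from the median of Htr1d. It was 0.65 within the 7 WT libraries and 0.23 in the 12 libraries low in cortical markers. Some other pairs, chosen after the values were seen, were stronger in subsets, where no test was run. In those 12 libraries Htr1b and Htr7 had r = -0.85 and Htr1a and Htr7 had 0.81, against -0.50 and 0.07 over all 15. Within WT Htr2c and Htr7 had 0.88, against 0.10 over all 15.

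Other genes that followed a receptor most closely were named by rule, as the 3 with the highest Pearson r of log2 CPM over the 15 libraries among 13648 genes with a mean of at least 1 CPM. These values come from a search over all such genes and are given as a description. Htr7 was followed by Kank4, Klhdc8a and Nefh (r = 0.95 each), and Htr2c by Blcap, Ankrd6 and Pdxk (0.94, 0.94 and 0.93). Htr1a was followed by Ntsr1, Ppm1e and Sez6l (0.93, 0.93 and 0.92), of which Ntsr1, the neurotensin receptor of deep-layer cortical neurons, had r = 0.96 in the 12 libraries low in cortical markers. Htr1b was followed by Fzd2, Osbpl8 and Cry1 (0.93, 0.90 and 0.89), and Htr4 by Rhobtb3, Arap1 and Snx33 (0.91, 0.89 and 0.89). The likeness of Htr1d to Sned1, Fbxo7 and Epb41l3 (0.91, 0.90 and 0.89) was lower in those 12 libraries, at 0.64, 0.73 and 0.70. That of Htr4 to Rhobtb3, Arap1 and Snx33 was 0.83, 0.86 and 0.66 there. The lowest best matches were those of Htr6, with Il2rb, Napsa and Mcf2l (0.84, 0.81 and 0.78), and Htr2a, with Cntn4, Zbtb16 and Kcnh1 (0.81, 0.81 and 0.80).

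The remaining serotonin receptor genes were low in CPM, which is not scaled by length, with 1 exception. Htr5a, a Gi/Go-coupled receptor, had 9.25 ± 1.81 CPM in WT (SD, n = 7), 8.79 ± 2.36 in E1 (n = 4) and 10.5 ± 2.41 in KI-96 (n = 4). Per length, Htr5a had a WT mean of 1.72 RPKM, as did Htr7, which was in the lowest group above. WT means were 0.88 RPKM for Htr1f, 0.82 for Htr3a, 0.40 for Htr5b and 0.28 for Htr2b, against 1.23 for Htr1a. Htr1f averaged 2.26, 2.13 and 2.50 CPM in the same order, and Htr3a, a subunit of the serotonin-gated ion channel, 1.71, 2.36 and 1.35. Htr5b averaged 0.77, 1.51 and 0.83 CPM and Htr2b 0.59, 0.55 and 0.72. Htr3b, the partner subunit of Htr3a, had 0 to 3 counts per library and was not tested. Of the 5 tested, 0 passed the threshold in any comparison by edgeR, DESeq2 or limma-voom. At an unadjusted p under 0.05 there was 1, Htr3a in KI-96 against E1 (log2 fold change -0.81, SE 0.34, adjusted p = 0.295).

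Genes particular to serotonin neurons were near absent, and those shared with other monoamines were present. Tph2, the rate-limiting enzyme of neuronal serotonin synthesis, averaged 0.59 CPM in WT, 1.03 in E1 and 0.84 in KI-96. Slc6a4, the serotonin transporter, averaged 0.062, 0.17 and 0.086 CPM, Tph1, the peripheral synthesis enzyme, 0.056, 0.47 and 0.23, and Fev, a transcription factor of serotonin neurons, at most 0.039. Ddc, the decarboxylase shared with dopamine synthesis, averaged 11.8, 8.76 and 11.7 CPM, and Slc18a2, the vesicular monoamine transporter, 6.06, 5.92 and 7.44. The monoamine oxidases Maoa and Maob, which degrade serotonin and dopamine, averaged 33.6, 29.2 and 31.6 CPM and 26.2, 27.7 and 25.4 CPM. Of these 8 genes 5 were tested, and 0 passed by edgeR, DESeq2 or limma-voom, and 0 had an edgeR unadjusted p under 0.05, in any comparison (smallest adjusted p by edgeR 0.454, for Ddc in KI-96 against E1).

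Downstream of the receptors, 0 genes of 4 lists passed the threshold in any comparison by edgeR, DESeq2 or limma-voom. Among 12 adaptors, arrestins, receptor kinases and editing enzymes, 2 had an unadjusted p under 0.05 in KI-96 against WT and 3 in KI-96 against E1, and 0 did in E1 against WT. The shares of all genes, in the same order, were 10.5%, 14.3% and 8.75%. The former were Adar, an enzyme that edits Htr2c mRNA (log2 fold change 0.36, SE 0.10, adjusted p = 0.309), and Arrb1, which encodes an arrestin (0.40, SE 0.12, adjusted p = 0.314). In KI-96 against E1 the smallest p-values were those of Adarb1, the other Htr2c editing enzyme (0.50, SE 0.15, adjusted p = 0.220), and Adar (0.32, SE 0.11, adjusted p = 0.243). In E1 against WT they were those of Dlg4, a scaffold of the postsynaptic density (0.26, SE 0.14), and Adarb1 (-0.26, SE 0.14). In this list 10 of 12 fold changes were positive in KI-96 against WT and 7 of 12 in E1 against WT, with medians of 0.11 and 0.03. Of all genes, 47.9% had positive fold changes in KI-96 against WT and 49.7% in E1 against WT.

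The G protein pathways showed the same absence of calls. Of the 5 Gi/Go subunits 0 had an unadjusted p under 0.05 in any comparison. The smallest p-values were those of Gnaz (log2 fold change 0.14) and Gnao1 (0.10) in E1 against WT, of Gnao1 (0.20) and Gnai1 (0.15) in KI-96 against WT, and of Gnai1 (0.14) and Gnai3 (-0.09) in KI-96 against E1. Of the 9 genes of the Gq/11 pathway, 8 had positive fold changes in KI-96 against WT and 4 in E1 against WT, with medians of 0.15 and -0.01. In E1 against WT Prkcb, a protein kinase C gene, had a log2 fold change of -0.17 (SE 0.16). Gna11 (0.17, SE 0.09) and Itpr1, the calcium channel opened by inositol trisphosphate (0.24, SE 0.16), had the smallest p-values in KI-96 against WT, and Prkcb (0.39, SE 0.17) and Itpr1 (0.39, SE 0.18) in KI-96 against E1, where 2 of 9 had an unadjusted p under 0.05, against 14.3% of all genes.

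Of the 13 genes of the Gs/Golf pathway, which serves Htr4, Htr6 and Htr7, 10 had positive fold changes in KI-96 against WT and 7 in E1 against WT, with medians of 0.06 and 0.01. In E1 against WT the smallest p-values belonged to Adcy9, an adenylyl cyclase (-0.29, SE 0.16, adjusted p = 0.613), and Prkar1b, a regulatory subunit of protein kinase A (0.24, SE 0.19). In KI-96 against WT they belonged to Gnal, the striatal Golf subunit (0.30, SE 0.14, adjusted p = 0.469), and Adcy3 (0.24, SE 0.12), and in KI-96 against E1 to Adcy9 (0.42, SE 0.18) and Adcy3 (0.29, SE 0.13). At an unadjusted p under 0.05 there were 0, 1 and 2 of 13 in the 3 comparisons, beside the background shares of all genes given above.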

How the data were processed

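RNA of 15 mouse striata was measured by sequencing, and the authors deposited whole-number read counts per gene, with no normalization, in 1 table with 1 column per mouse. Per the submitters' processing notes, STAR, HTSeq, GRCm38 and DESeq2 1.24.0 were used. Their settings, the annotation release and the use of strand were not given in the sources used here. A GENCODE annotation of GRCm38 matched 54165 of 54232 identifiers without their version (52566 with it) and gave symbols, coordinates and exon lengths.

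Groups follow the genotype in the labels. Genes were filtered with edgeR 4.0.16 by group (minimum count 10), scaled with the trimmed mean of M-values and fitted with a robust quasi-likelihood model with group as the single factor. Tests were two-sided, p-values were adjusted over all genes tested, and the threshold was 0.05. The SE was derived from this model, as the absolute log2 fold change divided by the square root of the F statistic. The 95% intervals are t intervals built on that SE. Log2 CPM for correlations used a prior count of 2, and permutation p-values used 100000 resamples. The code was tested on simulated counts. All 33 library pairs within groups differed by more than sampling noise (chi-square per gene at least 7.78). Replicate numbers were not used as pairs in the main model, since each library has its own mouse number. Whether same-numbered mice were matched in another way was not given in the sources used here. Correlations of same-numbered libraries ran from -0.10 to 0.19.

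Alternatives were DESeq2 1.42.0, its size factors within edgeR, limma-voom 3.58.1, no filter, fits of the compared groups only, a replicate block and each library left out in turn. Sets of libraries were also left out (the 3 high in cortical markers, or WT replicates 5 to 7). Further alternatives were the mean log2 CPM of cortical, choroid plexus or Y-linked genes as a covariate, and transcript length. All 8 receptors were named. Also named were all other serotonin receptors and all genes of serotonin synthesis, transport and breakdown, the 2 genes of smallest p in each further pathway list, and the 3 genes most alike to each receptor, leaving out predicted genes. Some values that this rule names are not reported here. The receptors, the 22 gene lists and the alternatives were chosen with earlier results of these data known.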

Additional observations from a re-analysis of the deposited data

Results flagged for a closer look

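In each of 24 groups of 4 or 7 libraries (8 receptors in 3 genotypes), the gap between the highest or lowest library and the nearest other one was compared with the whole range of the group by Dixon's criterion, which chance exceeds in about 1 in 20 groups. It was exceeded in 2 of the 24. Htr2a in WT replicate 2 was at 44.4 CPM, against 19.4 to 29.8 CPM in the other WT libraries, with a gap of 0.58 of the range. WT replicate 2 is also the library highest in choroid plexus markers, at 434 CPM. Htr4 in E1 replicate 4 was at 10.4 CPM, against 2.81 to 3.79 CPM in the other E1 libraries, with a gap of 0.87 of the range. E1 replicate 4 is the E1 library highest in markers of cholinergic interneurons (103 CPM), astrocytes (999 CPM), microglia (297 CPM) and hippocampus (58.0 CPM). It is also the E1 library highest in those of thalamus and other subcortical excitatory neurons (116 CPM). The part of these cell types in either value was not tested.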

How the results depend on the processing

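The 24 log2 fold changes of the receptors were recomputed under 26 alternatives each, and 0 of 8 receptors passed the threshold in any comparison under any of them. The adjusted p nearest to it was 0.0561, for Htr1d in KI-96 against E1 without E1 replicate 4. A sign turned in 29 of 264 values under settings other than leaving out 1 library, and in 18 of 360 with 1 library left out. The cause was not tested.

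In E1 against WT, Htr1a was -0.22 with Y-linked and -0.26 with cortical markers as a covariate, -0.02 (-0.018) with the replicate block, -0.35 without the 3 libraries high in cortical markers and -0.06 (-0.062) without WT replicates 5 to 7. Htr1b was -0.10 and Htr2a 0.19 with the Y-linked covariate, and Htr2c was -0.07 (-0.066) with that covariate and -0.03 (-0.0305) without the 3 libraries. In KI-96 against WT, Htr1b was 0.11 and Htr6 0.0075 with the choroid covariate, and Htr2a was 0.14 with the Y-linked one. Htr4 was 0.10 (0.099) with the block and 0.0047 without WT replicates 5 to 7, and Htr7 was 0.21 with the block, 0.17 without those libraries, 0.03 (0.031) by limma-voom and 0.04 (0.037) with the Y-linked covariate. In KI-96 against E1, Htr1a was 0.11, Htr2a 0.48 and Htr4 -0.09 (-0.0855) without the 3 libraries. Htr2a was also 0.28 with the cortical covariate, 0.03 (0.033) with the block and 0.01 (0.014) by limma-voom, and Htr6 was 0.0007 by DESeq2, 0.0021 with its size factors, 0.02 (0.022) with the choroid and 0.04 (0.0401) with the cortical covariate and 0.0085 by limma-voom.

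With 1 library left out at a time, values that changed sign ran in E1 against WT from -0.087 to 0.53 for Htr1a, -0.27 to 0.063 for Htr2a and -0.085 to 0.28 for Htr2c, in KI-96 against WT from -0.17 to 0.04 for Htr1b and -0.21 to 0.076 for Htr7, and in KI-96 against E1 from -0.23 to 0.11 for Htr2a and -0.076 to 0.10 for Htr6.

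Over all genes the number past the threshold in E1 against WT, 1 by edgeR, was 58 by DESeq2, 2 by limma-voom, 4 with the replicate block, and 0 with no filter, with only the groups compared, with each of the 3 covariates, and without the 3 libraries or WT replicates 5 to 7. In KI-96 against WT, 0 by edgeR, it was 69 by DESeq2, 1 by limma-voom, 1 with no filter and 6 with the block. In KI-96 against E1, 0 by edgeR, it was 201 by DESeq2 and 3 with no filter. Leaving out 1 library gave 0 to 257 in E1 against WT (257 without E1 replicate 4), 0 to 11 in KI-96 against WT and 0 to 190 in KI-96 against E1. The block uses replicate numbers, which are not known to pair the mice. Of 12 libraries numbered 1 to 4, 5 correlated best with their own number, and the count due to chance was not computed. With the length of the longest transcript, Htr2c was at 11.7 RPKM in WT, 13.0 in E1 and 16.3 in KI-96. Depth ran from 28 to 199 counts per library for Htr1a and from 42 to 189 for Htr7. The SE did not follow depth throughout, since in E1 against WT it was 0.14 for Htr6 with 125 to 326 counts and 0.22 for Htr1b with 650 to 1914.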
